A study of Mus musculus with 8 samples.

Results

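The mature products of the miR-193 and miR-365 hairpins were followed in whole kidney tissue after ureteral obstruction. Members were taken by name from the mouse miRNAs of the array: mmu-miR-193a-3p, mmu-miR-193a-5p, mmu-miR-193b-3p, mmu-miR-193b-5p and mmu-miR-365-3p (the species prefix is left out from here on). They are 5 of 1881 miRNAs and are read by 12 of 4415 probes. Of the 5, 4 passed the detection filter and miR-193b-5p did not. All kidneys came from male C57BL/6 mice aged 8 weeks, taken 7 days after surgery. In the UUO group (4 samples, UUO 1, 2, 3 and 4) the ureter of one kidney had been obstructed, and the Sham group (4 samples, Sham 1, 2, 3 and 8) had sham surgery. RNA of each sample was hybridized to 1 Agilent 1-colour miRNA array. The labels do not say in words that each sample came from a different mouse, so the errors below measure the spread between samples. Nor do they say which part of the kidney was taken. The family was chosen by its measured difference between UUO and Sham in these same arrays. The differences of its members are therefore given as a description, without a test.

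A miRNA gene is transcribed as a precursor that folds into a hairpin, and each arm of the hairpin can give a mature miRNA, named 5p or 3p. Bases 2 to 8 of the mature miRNA, the seed, pair with target mRNAs and largely decide which mRNAs are repressed. The mouse genome carries the family as a pair of clusters, each with one miR-193 and one miR-365 hairpin. The miR-193b and miR-365 cluster is best known from brown fat, and miR-193b represses the urokinase gene. miR-193a represses Wt1, a transcription factor that podocytes need, and excess miR-193a damages glomeruli.

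On build GRCm38.p6, with sequences from RefSeq, all 5 members were found in the reference table. Mir193a lies at chr11:79711969-79712034 and Mir365-2 at chr11:79726400-79726511, both on the plus strand and 14365 bases apart. Neither overlaps another RefSeq gene, and the nearest protein-coding gene of both is Rab11fip4, 13953 bases from Mir193a. Mir193b lies at chr16:13449523-13449601 and Mir365-1 at chr16:13453840-13453926, on the plus strand and 4238 bases apart, both inside the annotated span of the lncRNA genes Gm32817 and Gm53058. Whether they fall in an exon or an intron of these genes was not analysed here. The mature members are shown 5′ to 3′ with the seed in capitals, since the seeds divide them into groups:
miR-193a-3p: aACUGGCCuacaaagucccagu
miR-193b-3p: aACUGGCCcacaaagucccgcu
miR-365-3p: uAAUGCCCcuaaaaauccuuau
miR-193a-5p: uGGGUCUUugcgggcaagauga
miR-193b-5p: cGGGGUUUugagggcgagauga
The 3p arms of miR-193a and miR-193b share the seed ACUGGCC, which no other mature miRNA among the 1679 names in the table carries. They differ at 3 of 22 bases (U9C, A20G and G21C, miR-193a-3p first, counted from the 5′ end). The 5p arms differ at 5 of 22 bases (U1C, U5G, C6U, C11A and A16G), and 2 of these lie in the seed.

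miR-365-3p is encoded in both clusters. The pair of hairpins is shown with the miR-365-3p arm in capitals, because the arm is the same in both and the rest is not:
Mir365-2, chromosome 11: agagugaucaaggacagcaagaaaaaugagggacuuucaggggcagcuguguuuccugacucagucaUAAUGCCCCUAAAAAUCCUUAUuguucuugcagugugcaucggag
Mir365-1, chromosome 16: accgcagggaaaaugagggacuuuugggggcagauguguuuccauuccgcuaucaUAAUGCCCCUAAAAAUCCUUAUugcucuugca
A probe for miR-365-3p thus cannot tell the clusters apart, and the array files list it at both, on mm9 at chr11:79539969-79539990 and chr16:13453988-13454009. The 5p arms do differ between the loci, by 3 of 23 bases (C10U, A11G and C19A, miR-365-2-5p first), but neither was detected, as described later.

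The probes of the shared-seed pair can be told apart by sequence. They read the last 17 bases of their miRNAs, and the bases at which they differ are in capitals:
miR-193a-3p probe: aCTgggactttgtAggc
miR-193b-3p probe: aGCgggactttgtGggc
The miR-193a-3p probe is listed at chr11:79525516-79525532 and the miR-193b-3p probe at chr16:13449669-13449684 (mm9, as the files list them, the latter span 1 base shorter than its probe). Each had 3 mismatches to the other miRNA, which was the closest match to any other mature miRNA of the table. Whether either probe binds the other miRNA was not tested. The 22-base probe of miR-365-3p had at least 8 mismatches to every other mature miRNA at least as long.

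Signals are Agilent's background-subtracted spot intensities. Detection required over 50% of a probe's usable spots to be well above background, and between 720 and 800 probes were detected per array. Arrays were scaled by their 75th percentile, taken among the 623 probes that all 8 arrays detected, and put on the log2 scale. The percentile ran from 394 to 413 in Sham and from 435 to 482 in UUO. Scaled signals were not allowed below a common floor of −4.89 (log2), the highest of the arrays' lowest detected signals. Where a miRNA had several probes, the one with the highest mean level stood for it. All 8 arrays lay on 1 slide, with the Sham arrays in one row and the UUO arrays in the other, so slide row and surgery cannot be told apart. In bulk tissue, fewer cells of a type and less of the miRNA per cell cannot be told apart either.

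miR-193a-3p was lower on every UUO array than on any Sham array. Its unscaled intensity was 1165, 1079, 1101 and 1227 on Sham 1, 2, 3 and 8, and 523, 587, 559 and 464 on UUO 1 to 4. On the scaled log2 axis these were levels of 1.50, 1.45, 1.45 and 1.58 in Sham and 0.12, 0.43, 0.28 and −0.05 in UUO. The groups did not overlap: the lowest Sham level lay 1.02 above the highest UUO level. The UUO samples were spread wider (SD 0.21, n = 4) than the Sham samples (SD 0.06, n = 4), with UUO 2 highest and UUO 4 lowest. The log2 difference, UUO minus Sham, was −1.30 ± 0.10 (SE of the fit, n = 4 per group), a 2.46-fold lower signal. The shorter probe, of 16 bases, gave a log2 difference of −1.32. On each array 12 to 15 spots of the brighter probe were averaged, and their coefficient of variation was 2.16 to 3.52%.

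miR-193a-5p, the opposite arm of the same hairpin, was also lower on every UUO array but was close to the detection limit. Its brightest probe, of 14 bases, had unscaled intensities of 36.5, 37.5, 39.1 and 41.8 on Sham 1, 2, 3 and 8. On UUO 1 to 4 they were 15.3, 17.4, 18.4 and 15.2, which is 1.19 to 1.55 times the lowest detected signal of those arrays. The scaled log2 levels were −3.50, −3.39, −3.37 and −3.30 in Sham and −4.89, −4.65, −4.65 and −4.89 in UUO. UUO 1 and UUO 4 thus stood at the floor, although 6 of 7 and 5 of 7 of their spots were well above background. The log2 difference was −1.38 ± 0.08 (SE), or 2.60-fold lower. With the floor halved, an alternative added after the data were seen, it was −1.42, and with the floor doubled −0.50, since that floor lies above all UUO values. The mean of all 4 probes gave −0.63, with 2 of them undetected on every array. Only 7 spots per array carried this probe, and their coefficient of variation was 6.14 to 18.6%.

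miR-365-3p, whose probes cannot separate the clusters, was lower on every UUO array as well. Its unscaled intensity was 740, 725, 706 and 794 on Sham 1, 2, 3 and 8 and 404, 457, 424 and 371 on UUO 1 to 4. The scaled log2 levels were 0.84, 0.88, 0.81 and 0.95 in Sham (SD 0.06, n = 4) and −0.25, 0.07, −0.12 and −0.37 in UUO (SD 0.19, n = 4). The lowest Sham level lay 0.73 above the highest UUO level. As for miR-193a-3p, UUO 2 was the highest and UUO 4 the lowest of the obstructed kidneys. The log2 difference was −1.04 ± 0.09 (SE), or 2.05-fold lower, and the 21-base probe gave −1.05. The coefficient of variation between spots was 2.17 to 4.20%.

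miR-193b-3p, from the chromosome 16 cluster, showed the smallest difference of the detected members. Its unscaled intensity was 59.3, 54.9, 54.8 and 59.1 on Sham 1, 2, 3 and 8 and 42.2, 42.4, 45.3 and 43.0 on UUO 1 to 4. The scaled log2 levels were −2.80, −2.84, −2.88 and −2.80 in Sham (SD 0.04, n = 4) and −3.51, −3.36, −3.35 and −3.49 in UUO (SD 0.09, n = 4). The groups were separated by 0.47, more than the spread within either. On the scaled axis UUO 2 and UUO 3 stood close together above UUO 1 and UUO 4. Before scaling UUO 2 (42.4) was below UUO 4 (43.0), so this grouping depends on the scaling. The log2 difference was −0.59 ± 0.05 (SE), or 1.51-fold lower, and the 16-base probe gave −0.56. The signal was 3.33 to 4.76 times the lowest detected signal of its array, and the spots' coefficient of variation was 6.42 to 13.2%. The mean unscaled intensity in Sham was 57.0, against 1143 for miR-193a-3p. Whether binding of miR-193a-3p adds to the miR-193b-3p probe's signal was not tested.

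**Figure D1:**
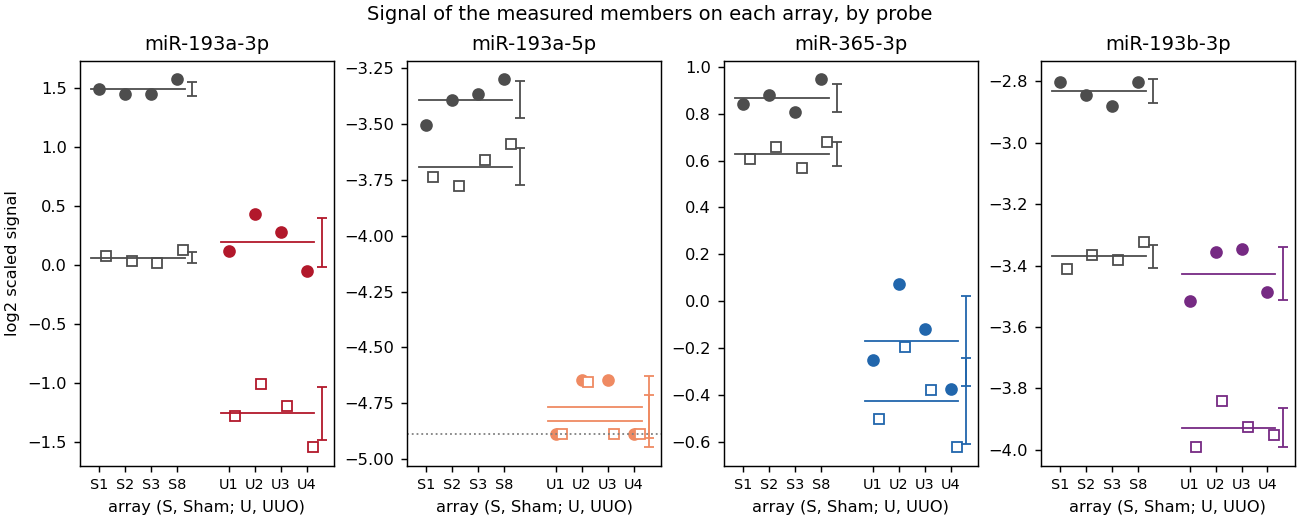
Log2 scaled signal of the 4 detected members on each of the 8 arrays (S, Sham; U, UUO), each panel with its own axis. Filled circles are the brightest probe, open squares the second brightest, lines the group means and bars the SD (n = 4), and the dotted line is the floor. For each brightest probe all UUO values lie below all Sham values, by 1.02 for miR-193a-3p and by 0.47 for miR-193b-3p.

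The remaining arms were not detected on any array. Both probes of miR-193b-5p, the opposite arm to miR-193b-3p, had unscaled intensities between 0.262 and 3.27, with no spot well above background. miR-365-1-5p and miR-365-2-5p, the opposite arms of the pair of miR-365 hairpins, are not members but would separate the clusters. The intensities of miR-365-1-5p ran from 2.50 to 6.54 and those of miR-365-2-5p from −2.05 to 0.337. No fold is given for these 3, and how much of miR-365-3p came from each cluster was therefore not measurable here.

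The 4 detected members passed the detection filter on all 8 arrays and entered a limma fit over the 408 miRNAs detected on at least 4 arrays. At an adjusted p under 0.05, 4 of the 4 were called lower, where 27.7% of all tested miRNAs were called lower and 39.7% higher. All UUO values lay below all Sham values for 4 of 4 members and for 26.2% of all tested miRNAs, and above them for 35% of all tested miRNAs. A log2 difference of −1 or below was found for 3 of the 4 and for 5.15% of all tested miRNAs. Ordered from the most negative difference, miR-193a-5p stood at place 5, miR-193a-3p at 6, miR-365-3p at 18 and miR-193b-3p at 56 of 408. The median log2 difference of all tested miRNAs was 0.06. Since the members were chosen on this contrast, nothing is read from these counts.

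**Figure D2:**
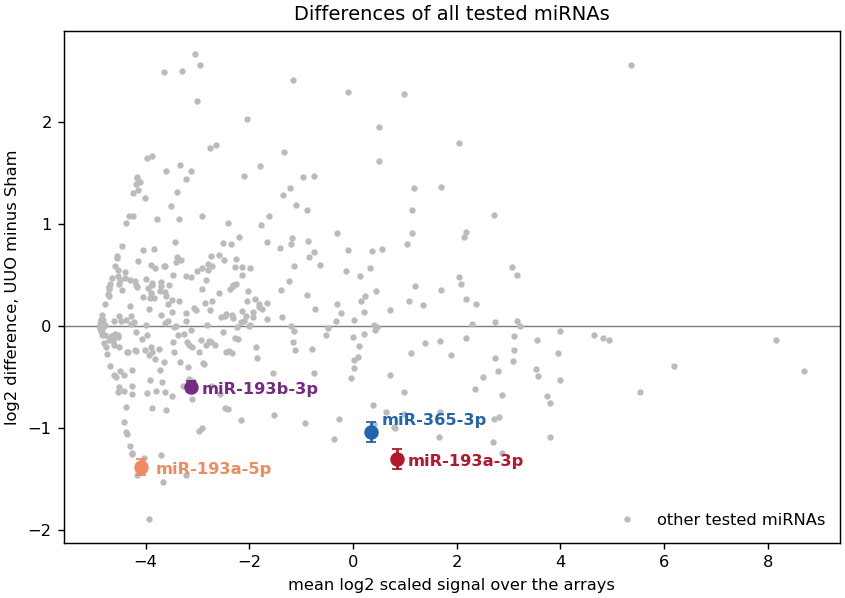
Log2 difference, UUO minus Sham, against the mean log2 scaled signal over the 8 arrays for the 408 tested miRNAs (grey) and the 4 detected members (coloured, bars are the SE of the fit). miR-193a-5p (−1.38) lies at the dim end of the axis, and miR-193a-3p (−1.30) and miR-365-3p (−1.04) among brighter miRNAs.

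Differences between members are free of any common scaling of an array, apart from the floor. Of the arms of Mir193a, miR-193a-5p was 0.08 further down than miR-193a-3p (−0.08 ± 0.07, SE, n = 4 per group), within 2 SE. This value and its SE are partly set by the floor, where miR-193a-5p stood on UUO 1 and UUO 4. With the floor doubled the differences were −0.50 for miR-193a-5p and −1.30 for miR-193a-3p. Whether both arms changed alike is therefore not settled here. miR-193a-3p changed more than miR-365-3p, its neighbour on chromosome 11, by −0.26 ± 0.02. Set to 0 at its Sham mean, the within-array log2 ratio of the pair was −0.30 to −0.23 on UUO arrays and −0.05 to 0.03 on Sham arrays. miR-193b-3p changed less than miR-365-3p, its neighbour on chromosome 16, by 0.44 ± 0.07. Of the pair with a shared seed, miR-193a-3p changed more than miR-193b-3p by −0.71 ± 0.08, and the UUO arrays (−0.89 to −0.54) did not overlap the Sham arrays (−0.03 to 0.05). The difference of miR-365-3p lay between those of miR-193a-3p and miR-193b-3p. All of these describe the contrast by which the family was chosen.

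The size of each difference varied over the 8 ways of summarizing and scaling the arrays that were tried, and the direction did not. miR-193a-3p ran from −1.64 with the total signal per miRNA, Agilent's sum over its probes, to −1.01 with scaling to 4 control features that the array names dmr, and miR-365-3p from −1.38 to −0.75 over the same pair. miR-193b-3p ran from −0.92 to −0.31, again between these. miR-193a-5p ran from −1.75 with the total signal to −0.53 with normexp correction, which adds 50 to each intensity and so exceeds its own signal. The median of all tested miRNAs moved too, from −0.23 with the total signal to 0.34 with the dmr features. Relative to that median miR-193a-3p lay at −1.41 to −1.17, miR-365-3p at −1.15 to −0.90, miR-193b-3p at −0.81 to −0.33 and miR-193a-5p at −1.52 to −0.51. The within-array difference between miR-193a-3p and miR-193b-3p stayed between −0.84 and −0.56, that between miR-193a-3p and miR-365-3p between −0.28 and −0.26, and that between miR-193b-3p and miR-365-3p between 0.28 and 0.57. The difference of miR-193a-5p from miR-193a-3p turned its sign with normexp correction, to 0.66, and lay between −0.13 and −0.08 in the other scalings. Calls over all miRNAs differed between these settings as well. There were 162 higher and 113 lower as reported, 194 and 84 with the percentile over all probes, 212 and 77 without scaling, and 240 and 64 with the dmr features. Quantile normalization gave 123 and 160, normexp correction 122 and 156, the total signal 109 and 217, and the deposited ratios 118 and 207. The total signal and the deposited ratios also sum a miRNA's probes in place of taking the brightest, and 499 miRNAs were tested there in place of 408.

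**Figure D3:**
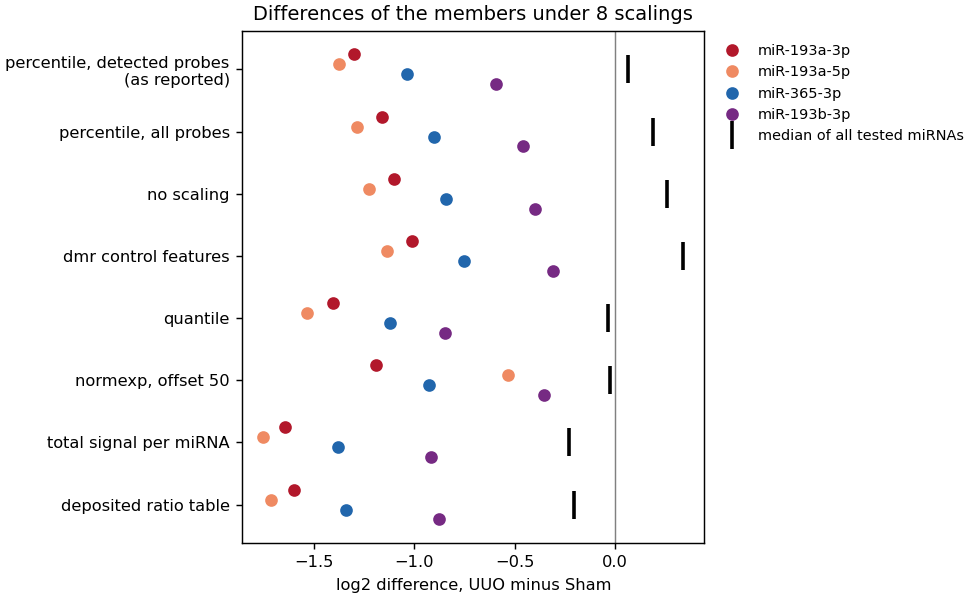
Log2 difference, UUO minus Sham, of the 4 detected members (points) under 8 scalings, with the median of all tested miRNAs as a black tick. Every point lies left of 0, from −1.75 (miR-193a-5p, total signal) to −0.31 (miR-193b-3p, dmr control features), and the members keep their order except for miR-193a-5p under normexp correction.

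The deposited ratios are scaled by 1 factor per array and 1 constant per miRNA, and the factors alone are higher on all Sham arrays than on all UUO arrays. In the authors' deposited table the undetected miR-193b-5p therefore reads 1.11, 1.26, 1.28 and 1.11 on Sham 1, 2, 3 and 8 and 0.809, 0.903, 0.867 and 0.766 on UUO 1 to 4. In the authors' deposited table miR-193a-3p had ratios of 1.55, 1.65, 1.68 and 1.64 on Sham 1, 2, 3 and 8 and 0.511, 0.647, 0.582 and 0.429 on UUO 1 to 4. In the authors' deposited table miR-365-3p had 1.40, 1.58, 1.53 and 1.51 in Sham and 0.559, 0.713, 0.631 and 0.494 in UUO. In the authors' deposited table miR-193b-3p had 1.27, 1.39, 1.39 and 1.32 in Sham and 0.690, 0.786, 0.776 and 0.677 in UUO. Since a miRNA without signal also shows no overlap in this table, the lack of overlap alone says nothing about these 3. Relative to the median log2 difference of all miRNAs tested with these ratios, miR-193a-3p lay at −1.40, miR-365-3p at −1.14 and miR-193b-3p at −0.67. The table was made from the same scans and is no independent measurement.

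Each slide column held 1 Sham and 1 UUO array, which gives 4 differences per miRNA. They ran from −1.63 to −1.02 for miR-193a-3p, from −1.59 to −1.25 for miR-193a-5p, from −1.32 to −0.81 for miR-365-3p and from −0.71 to −0.47 for miR-193b-3p. Column 4, with Sham 8 and UUO 4, gave the most negative difference for all but miR-193b-3p, for which it was column 1.

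The tested miRNAs most like each member were found by the root mean square distance over the 8 arrays between log2 levels centred on the Sham mean. Nearest to miR-193a-3p were miR-190a-5p (distance 0.06, log2 difference −1.29 ± 0.09, SE), miR-30e-5p (0.08, −1.24 ± 0.07) and miR-192-3p (0.09, −1.26 ± 0.11). miR-192 and the miR-30 family are abundant in kidney tubules. The arm found here, miR-192-3p, was dim, with a mean log2 level of −3.71 against 2.70 for miR-192-5p. miR-190a-5p was dimmer still, at −4.03, and stood at the floor on UUO 4, so its distances are partly set by the floor. miR-190a-5p, miR-30e-5p and miR-192-3p were also nearest to miR-193a-5p, at distances of 0.11 to 0.13. Nearest to miR-365-3p were miR-29c-5p (0.05, −1.001 ± 0.08), miR-378a-5p (0.06, −1.03 ± 0.07) and miR-30c-5p (0.08, −1.08 ± 0.07). Nearest to miR-193b-3p were miR-219a-5p (0.05, −0.58 ± 0.06), miR-3962 (0.07, −0.53 ± 0.05) and miR-107-3p (0.07, −0.61 ± 0.07). Among the members themselves the distance was 0.10 between both arms of Mir193a and 0.19 between miR-193a-3p and miR-365-3p. The measure chiefly reads the size of the group difference, and the points share their arrays.

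**Figure D4:**
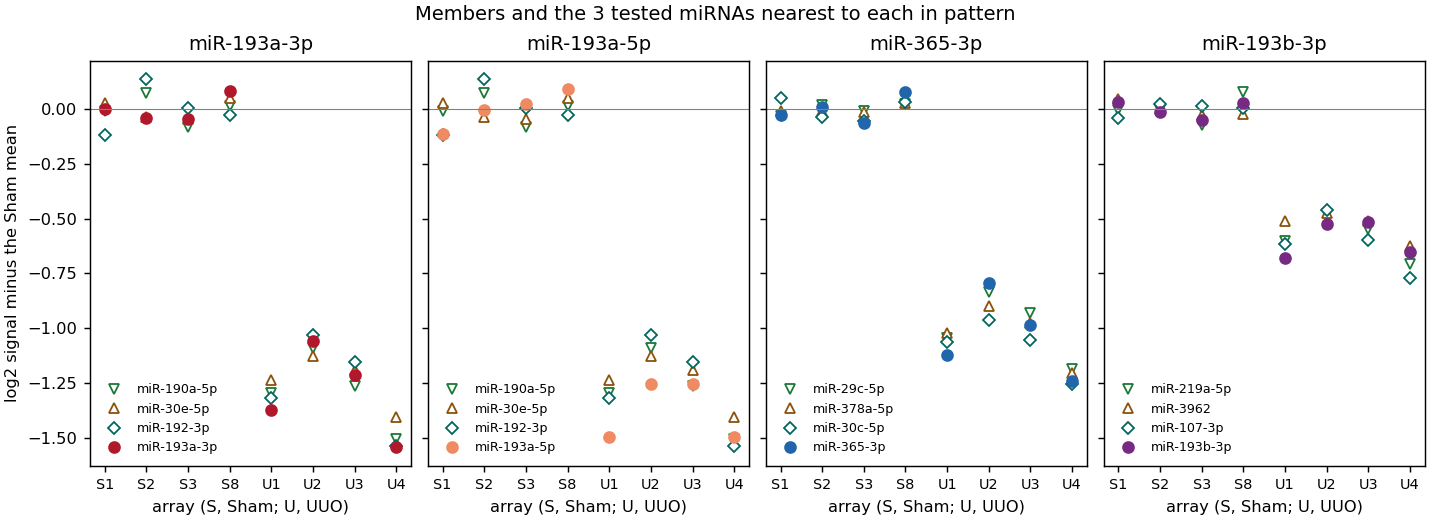
Log2 signal minus the Sham mean on each of the 8 arrays (S, Sham; U, UUO) for each detected member (filled circles) and the 3 tested miRNAs nearest to it (open symbols). On UUO arrays miR-193a-3p and its neighbours all stand highest on UUO 2 (miR-193a-3p at −1.06) and lowest on UUO 4 (miR-193a-3p at −1.54). The UUO 4 value of miR-190a-5p is the floor.

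miRNAs typical of kidney epithelium and of other cell types were read from the same arrays. Of the 10 tested miRNAs of the kidney epithelium list 7 were called lower and 3 were not called, with a median log2 difference of −0.60. Beside this count and those of the lists below, 27.7% of all tested miRNAs were called lower and 39.7% higher. The epithelium list includes miR-190a-5p, named above as nearest to miR-193a-3p. The brightest members of the list were miR-30a-5p (−0.75 ± 0.07, SE) and miR-10a-5p (0.00 ± 0.09), and miR-215-5p was not detected on any array. The scaled signal summed over the list was 59.6 to 64.9 in Sham and 39.0 to 45.0 in UUO. Among UUO arrays UUO 2 was highest and UUO 4 lowest, as for miR-193a-3p and miR-365-3p. This order is not particular to epithelium. The podocyte, fat, endothelial and red blood cell sums given below were also highest on UUO 2 and lowest on UUO 4. The leukocyte, fibroblast and striated muscle sums were not. All these sums are of scaled signals, and the scaling percentile was lowest on UUO 2, at 435. It was 482, 461 and 481 on UUO 1, 3 and 4. The order of the sums among UUO arrays thus depends in part on the scaling, and the sums were not formed without it. Of the 6 miRNAs linked to podocytes 5 were called lower and 1 was not called (median −0.36), and their sum was 53.2 to 58.2 in Sham and 37.5 to 42.9 in UUO. The brightest were miR-26a-5p (−0.26 ± 0.06) and miR-30c-5p (−1.08 ± 0.07). The latter belongs to the miR-30 family, named above as abundant in kidney tubules, so this sum is not specific to podocytes.

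All 8 leukocyte miRNAs were called higher (median 1.87), led in signal by miR-142a-3p (2.28 ± 0.07) and the myeloid miR-223-3p (2.30 ± 0.07). Their summed signal was 2.42 to 2.86 in Sham and 8.88 to 9.97 in UUO. Of the 6 fibroblast miRNAs 5 were called higher and 1 was not called (median 1.60). Their sum was 5.41 to 6.02 in Sham and 13.6 to 15.6 in UUO, with UUO 4 highest. The brightest of them were miR-199a-3p (1.80 ± 0.07) and miR-143-3p (0.24 ± 0.07).

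Of 9 miRNAs linked to brown and white fat, a tissue in which miR-193b and miR-365 are known and which lies around the kidney, 4 were called lower, 1 higher and 4 were not called (median −0.11). Their sum was 8.72 to 9.25 in Sham and 6.94 to 7.80 in UUO. The brightest were miR-27b-3p (−0.11 ± 0.05) and miR-196a-5p (−0.01 ± 0.06). The endothelial miR-126a-3p was at −0.14 ± 0.06 and was not called, and miR-126a-5p was called lower (−0.22 ± 0.07), with a sum of 12.49 to 13.24 in Sham and 10.67 to 12.39 in UUO. Of the red blood cell miRNAs 2 of 3 were called lower, miR-451a at −0.84 ± 0.20 and miR-144-3p at −0.81 ± 0.23, and their sum overlapped between Sham (3.71 to 5.46) and UUO (2.12 to 3.84). The striated muscle miRNAs miR-1a-3p (−0.19 ± 0.21) and miR-133b-3p (0.02 ± 0.23) were not called, and miR-206-3p was not detected on any array. The part of these cell types in the lower signals of miR-193a-3p, miR-193a-5p, miR-193b-3p and miR-365-3p was not tested.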

How the data were processed

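Per the file headers, the authors' spot intensities were made by Agilent Feature Extraction 10.7.3.1. It subtracted a fitted background surface and left arrays unscaled, and its probe positions are on mm9. The deposited table of the series holds a ratio per miRNA. Each of its 1881 miRNA values equalled the files' total signal times 1 factor per array, divided by 1 constant per miRNA (log2 tolerance 0.001). How the factor was set is unknown here, and its log2 ran from 0.15 to 0.36 in Sham and from −0.38 to −0.14 in UUO. Control spots and outlier spots (2.64 to 2.95% per array) were left out, no spot was saturated, and spots of a probe were averaged. Scaled log2 signals were fitted with limma 3.58.1 in R 4.3.3 (lmFit and eBayes, group as the only term, Benjamini-Hochberg over 408 miRNAs). The fit was tested on simulated data. The number of arrays limits the precision. Every member and probe was named, with the 3 nearest tested miRNAs of each detected member and the 2 brightest of each marker list. Members, lists and alternatives were chosen with earlier results of these data known.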

Additional observations from a re-analysis of the deposited data

How the results depend on the processing

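The median log2 difference of the 4 detected members was −1.17 with the settings of the report. It was −1.03 with the percentile over all probes, −0.97 without scaling, −0.88 with the dmr control features, −0.73 with normexp correction, −1.51 with the total signal and −1.47 with the deposited ratios. It was −0.82 with the floor doubled and −0.84 with the mean of all probes, 2 of the 4 miR-193a-5p probes being undetected. The replicate block over numbers 1, 2 and 3 gave −1.07, with 142 miRNAs called higher and 84 lower, and every detected member lower. Deviations of same-numbered arrays from their group means correlated at −0.000807, 0.12 and −0.30. Those of differently numbered arrays ran from −0.45 to 0.38. These values show no likeness by number, but they cannot settle whether the numbers pair the samples. Leaving out each sample in turn gave medians of −1.25 to −1.09, with 147 to 171 miRNAs called higher and 106 to 117 lower. The count of miRNAs called lower was 64 with the dmr features. It was 207 with the deposited ratios and 217 with the total signal, which also sum over probes and test 499 miRNAs. No member turned its sign under any alternative run. The dim signals of miR-193a-5p and miR-193b-3p limit how well their differences are known.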

Other observations

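In the authors' deposited table an undetected miRNA does not read as absent. miR-365-1-5p and miR-365-2-5p, with no spot well above background on any array, are listed in the authors' deposited table at the values given above for miR-193b-5p. These equal the column medians of the table, and the files give all 3 a total signal of 0.1 on every array, the value used where nothing was detected. A miRNA without signal thus stands lower in every UUO column than in every Sham column.

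The 4 probes of miR-193a-5p differ in length only, each reading the 3′ end of the miRNA:
14-base probe: tcatcttgcccgca
12-base probe: tcatcttgcccg
The 14-base probe had unscaled intensities of 38.7 ± 2.33 in Sham and 16.6 ± 1.56 in UUO (SD, n = 4 each). The 13-base probe had 31.5 ± 2.27 in Sham and 13.6 ± 2.48 in UUO, and was detected on 4 Sham and 2 UUO arrays. The 12-base probe had 2.39 ± 1.32 and 1.47 ± 0.62 and the 11-base probe −1.87 ± 0.48 and −1.84 ± 0.99, and neither was detected on any array.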
